A study of Homo sapiens with 6 samples.

Results

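Keratins, desmosomes and the cornified envelope give epithelial cells their mechanical strength, and 39 genes of these structures are described here in a human mammary epithelial line after transfection of a miR-221/222 mimic. The members were listed by gene symbol, and fall into basal and stress keratins (with TP63), simple and other keratins, desmosome genes and cornified envelope genes. A probe set annotated to the symbol was found for 33 of the 39, and these 33 genes have 54 of the 54613 probe sets tested. None of the 54 is shared with another gene. TP63, KRT6A, KRT6B, KRT17, KRT81 and SPRR2A had no probe set under their symbol in the annotation used and were not analysed here.

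All samples come from 1 established cell line, MCF10A, which derives from non-tumorous human breast epithelium. One group was transfected with miR-221/222 (the mimic), the other with a control microRNA labelled miR-control, each in 3 biological replicates per the labels' protocols. Total RNA of each replicate was hybridised to a single-colour array, and each value is a log2 intensity of a probe set after RMA, in which a step of 1 is a doubling. Neither dose, harvest time nor the arm of each microRNA in the mimic is stated in the labels.

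Keratins are intermediate filament proteins that assemble only as pairs of a type II and a type I chain. KRT5 and KRT14 form the pair of basal and myoepithelial cells, KRT8 and KRT18 that of simple and luminal epithelium, and KRT16 is a type I keratin of stressed or fast-growing epidermis. Desmosomes tie these filaments to the neighbouring cell: desmogleins and desmocollins bridge the membranes, and plakoglobin, plakophilins and desmoplakin link them to keratin. During terminal differentiation keratinocytes build a cornified envelope, in which transglutaminases cross-link involucrin, small proline-rich proteins and plakins under the membrane.

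The mature RefSeq sequences below are shown for reference and belong to the microRNAs named in the labels. The labels do not state which arm of each was in the mimic, so whether these sequences were transfected is not known. The seed, bases 2 to 8, is in capitals and is the same in both; the genes lie on chromosome X.
hsa-miR-221-3p: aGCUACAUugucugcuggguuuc
hsa-miR-222-3p: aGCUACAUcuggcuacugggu

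Stretches of 180 bases before the transcription start are printed for 6 members, from RefSeq on GRCh38.p14, 5′ to 3′ on the gene's strand. Involucrin (IVL), SPRR1B and SPRR3 lie in the same stretch of chromosome 1, and their values moved differently. KRT5, DSG3 and DSC3 are among the members with the largest falls. Capitals mark the AP-1 motif TGANTCA, the TATA motif TATAAA and the p53 family decamer. The stretches are chr1:152908366-152908545 for IVL, chr1:153031023-153031202 for SPRR1B, chr1:153001569-153001748 for SPRR3 and chr18:31447561-31447740 for DSG3, all on the plus strand. On the minus strand are chr12:52520395-52520574 for KRT5 and chr18:31042743-31042922 for DSC3.
IVL: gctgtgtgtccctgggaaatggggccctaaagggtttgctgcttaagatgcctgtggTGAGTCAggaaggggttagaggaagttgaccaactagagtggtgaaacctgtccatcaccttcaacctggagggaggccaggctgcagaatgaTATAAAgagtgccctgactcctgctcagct
SPRR1B: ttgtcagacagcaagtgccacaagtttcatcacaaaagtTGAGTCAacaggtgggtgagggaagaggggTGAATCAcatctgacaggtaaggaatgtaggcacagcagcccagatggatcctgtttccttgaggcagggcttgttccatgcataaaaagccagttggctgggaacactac
SPRR3: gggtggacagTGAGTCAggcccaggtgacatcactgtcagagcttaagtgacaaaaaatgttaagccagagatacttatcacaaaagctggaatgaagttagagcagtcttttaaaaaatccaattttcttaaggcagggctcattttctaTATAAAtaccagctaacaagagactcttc
KRT5: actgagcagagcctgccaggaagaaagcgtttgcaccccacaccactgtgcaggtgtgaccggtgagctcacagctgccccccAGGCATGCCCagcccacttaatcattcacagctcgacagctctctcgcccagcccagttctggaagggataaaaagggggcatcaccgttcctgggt
DSG3: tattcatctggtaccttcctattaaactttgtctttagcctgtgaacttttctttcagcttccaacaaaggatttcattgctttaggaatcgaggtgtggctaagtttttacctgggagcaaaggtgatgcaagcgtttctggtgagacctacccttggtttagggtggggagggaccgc
DSC3: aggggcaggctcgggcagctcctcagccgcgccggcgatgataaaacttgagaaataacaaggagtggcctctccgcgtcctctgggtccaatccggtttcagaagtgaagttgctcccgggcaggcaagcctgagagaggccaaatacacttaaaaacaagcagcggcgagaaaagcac

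Motifs were searched in the 250 bases before the start, on both strands except TATA, which was read on the gene's strand. RefSeq promoters were matched for 20 of the 33 measured members, 3 of them with a second start, and those of KRT14, KRT15, KRT16 and KRT18 were not used here. AP-1, the factor of JUN and FOS proteins, has its motif in 7 of the 11 cornified envelope promoters, in 1 of the 10 desmosome promoters and in 6.57% of all 35097 promoters in the table. It starts 123 bases before the start of IVL, 170 before that of SPRR3, and 141 and 111 before that of SPRR1B. TATAAA was found in 5 of the 11 cornified envelope promoters, none of the desmosome promoters and 6.8% of all. The GC box GGGCGG was in 7 of the 10 desmosome promoters, 1 of the 11 cornified envelope promoters and 42.6% of all. KRT5 and KRT8 each hold 1 p53 family decamer, 97 and 136 bases before the start. This decamer was searched only in the form of 3 purines, CATG and 3 pyrimidines. In that form it was in 2 of the 23 member promoters and 1.29% of all promoters. The overlap of these motifs with each other was not counted, and a match shows letters only, not binding.

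Across arrays the medians lay between 7.59 and 7.66, pairs of arrays correlated over probe sets with r from 0.9953 to 0.998 within a group and from 0.9821 to 0.9858 between groups. Array weights estimated by limma ranged from 0.41 for mimic replicate 1 to 3.17 for mimic replicate 2. Precision is limited by having 6 arrays. The 3′ minus 5′ signal of ACTB, a sign of RNA quality, was 0.33 to 0.39 in mimic and 0.29 to 0.36 in control arrays, and that of GAPDH 0.02 to 0.04 and -0.05 to 0.02. The epithelial label was borne by CDH1 (E-cadherin) and CLDN7, which read 11.37 to 12.32 on every array. Of 6 epithelial markers 5 were lower in the mimic, with the largest changes in EPCAM (-1.54) and CLDN4 (-1.25). The summed linear signal of the 6 was 10067 to 10206 in mimic and 13897 to 14093 in control arrays. Of 10 fibroblast markers 1 rose and 3 fell, and their summed linear signal was 15930 to 16802 in mimic and 7917 to 8340 in control arrays. DCN, a matrix proteoglycan gene, was the marker that rose, by 1.66 on the log2 scale, and the sums without it were 2676 to 2789 in mimic and 3764 to 3838 in control arrays. For 8 endothelial markers (1 lower) the sums were 2012 to 2137 and 2279 to 2455, and for 5 blood cell markers (1 higher, 1 lower) 1775 to 1826 and 2235 to 2307. The markers that fell were KDR (-1.48) and CD14 (-1.15); without KDR the endothelial sums were 1778 to 1929 in mimic and 1679 to 1763 in control arrays, and without CD14 the blood cell sums were 1345 to 1372 and 1248 to 1306. The sums for 5 melanocyte markers, of which none passed, were 1421 to 1462 and 1292 to 1378. These values move with the groups, and their part in the results was not tested. Both group means lay below every array median in 3 of the 10 fibroblast and 4 of the 8 endothelial markers. The same held for 2 of the 5 blood cell and 3 of the 5 melanocyte markers. Whether these markers were expressed is not known. In such bulk samples, fewer cells of a type and less RNA per cell cannot be told apart.

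Most members were lower in the mimic arrays. By limma with Benjamini-Hochberg adjustment over all probe sets, 20 of the 33 measured genes fell, 4 rose and 9 did not pass. Over all 19775 genes, 16.3% fell, 14.1% rose and 30.4% changed in either direction. The median change of the members was -0.41 on the log2 scale, and that of all genes 0.03. In 22 members the mimic arrays lay wholly below the control arrays and in 4 wholly above, where 21.9% and 23.7% of all genes did. At least 2-fold lower were 6 of the 33 members, KRT5, KRT14, KRT15, KRT16, DSG3 and DSC3, and 2.09% of all genes. By probe set, 30 of the 54 fell and 4 rose, against 13.1% and 11.6% of all probe sets. The members that rose were KRT23, CNFN, SPRR3 and FLG.

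**Figure D1:**
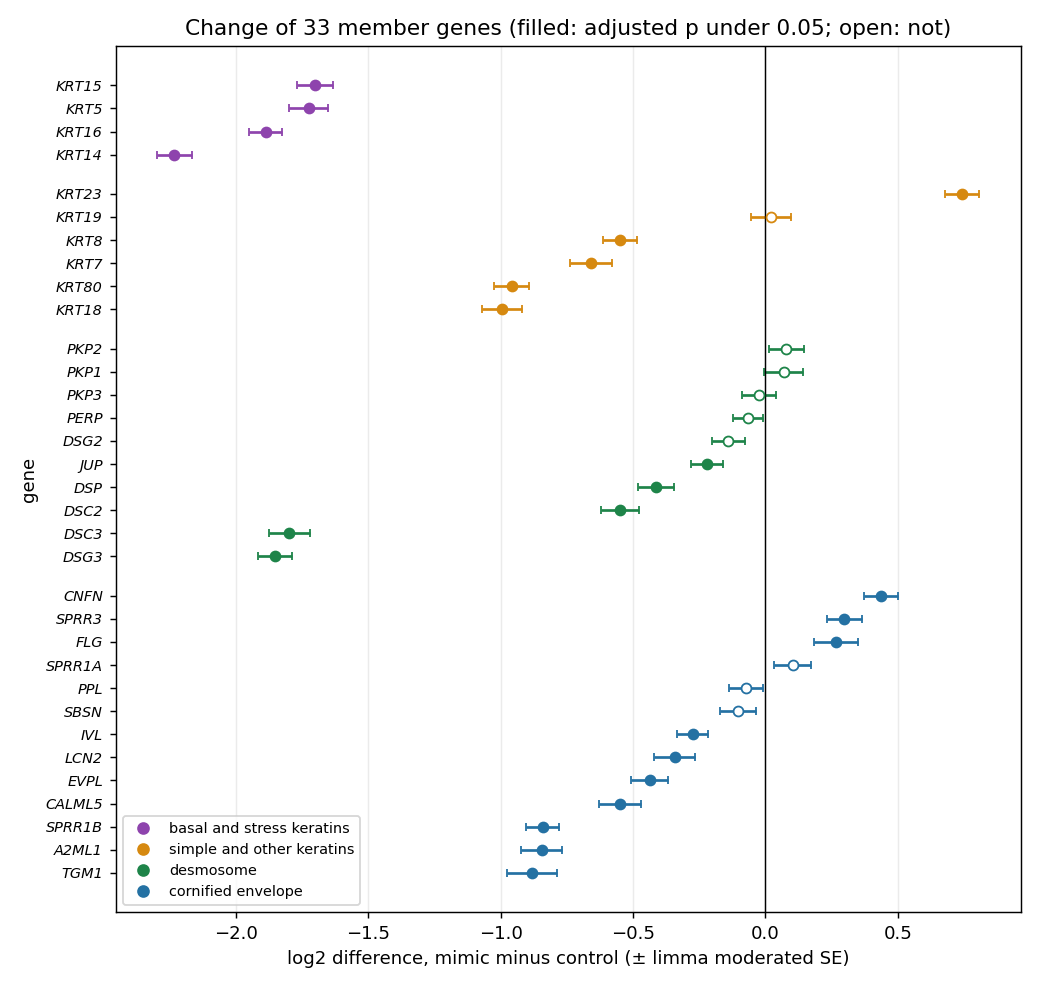
Log2 difference, mimic minus control, of the 33 measured members by group, with limma's moderated standard error; filled points passed an adjusted p of 0.05 over all probe sets and open points did not. The 4 basal and stress keratins lie between -2.23 and -1.70, DSG3 and DSC3 stand beside them, and 4 members lie above 0 as filled points.

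All 4 measured basal and stress keratins fell, where 16.3% of all genes did, with a median change of -1.81. KRT14, the type I keratin of basal cells, read 10.82, 10.96 and 10.85 in mimic replicates 1 to 3 and 13.13, 13.16 and 13.03 in the control replicates. The groups were far apart: the change was -2.23 ± 0.07 (SE), 4.70-fold higher in the control (adjusted p = 3.6e-09, limma). Its type II partner KRT5 read 11.84, 11.86 and 11.63 against 13.50, 13.54 and 13.47, with the mimic arrays all lower, a change of -1.73 ± 0.07 (SE, adjusted p = 3.4e-08). KRT15, a type I keratin of basal keratinocytes and hair follicle stem cells, read 11.00, 11.17 and 10.98 against 12.77, 12.78 and 12.72. The change was -1.70 ± 0.07 (SE, adjusted p = 2.1e-08), and no mimic array reached a control array. KRT16 read 9.62, 9.68 and 9.60 against 11.45, 11.56 and 11.54, a change of -1.89 ± 0.06 (SE) or 3.70-fold higher in the control (adjusted p = 6.1e-09). All its mimic arrays lay far below all its control arrays. Each of these genes rests on 1 probe set, and basal keratins of the same type have similar sequences, so a probe may pick up a paralog and the level of each gene alone is uncertain.

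Simple and other keratins changed less and not all one way. Of 6 measured, 4 fell, 1 rose and KRT19 did not pass, where 16.3% of all genes fell and 14.1% rose. The median change of the 6 was -0.60. KRT18, the type I chain of simple epithelium, read 11.20, 11.43 and 11.38 in the mimic and 12.40, 12.28 and 12.32 in the control arrays. The groups did not overlap, and the gene was 1.99-fold higher in the control (adjusted p = 2.5e-06). Its partner KRT8 read 10.29, 10.31 and 10.24 against 10.83, 10.91 and 10.75, again apart, with a change of -0.55 ± 0.06 (SE, adjusted p = 7.8e-05). Both are read at x_at probe sets, which can bind several transcripts. KRT7, a type II keratin of glandular ducts, read 12.80, 12.78 and 12.62 against 13.26, 13.46 and 13.46, with no overlap. It changed by -0.66 (adjusted p = 8.4e-05). That holds for the probe set with the highest signal; of its other 3, 1 fell by 0.20 and 2 did not pass, at 0.15 and 0.05.

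KRT80, a type II keratin found near cell junctions, read 7.35, 7.47 and 7.48 in the mimic and 8.43, 8.31 and 8.43 in the control arrays, 1.94-fold higher in the control (adjusted p = 1.3e-06). The KRT80 mimic values lie below the array medians, where the size of a fold is uncertain. KRT23, a type I keratin of glandular epithelia, was the keratin member that rose. It read 8.99, 9.09 and 8.96 against 8.33, 8.28 and 8.21, with every mimic array above every control array and a change of 0.74 ± 0.07 (SE), 1.67-fold higher (adjusted p = 8.3e-06). KRT19, a luminal type I keratin, read 7.23, 7.16 and 7.23 against 7.10, 7.12 and 7.33, with overlapping groups. Its change was 0.02 with a 95% confidence interval from -0.14 to 0.19. Those values lie below the array medians, as do those of its other probe set, and without detection calls it is not known whether KRT19 was expressed.

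**Figure D2:**
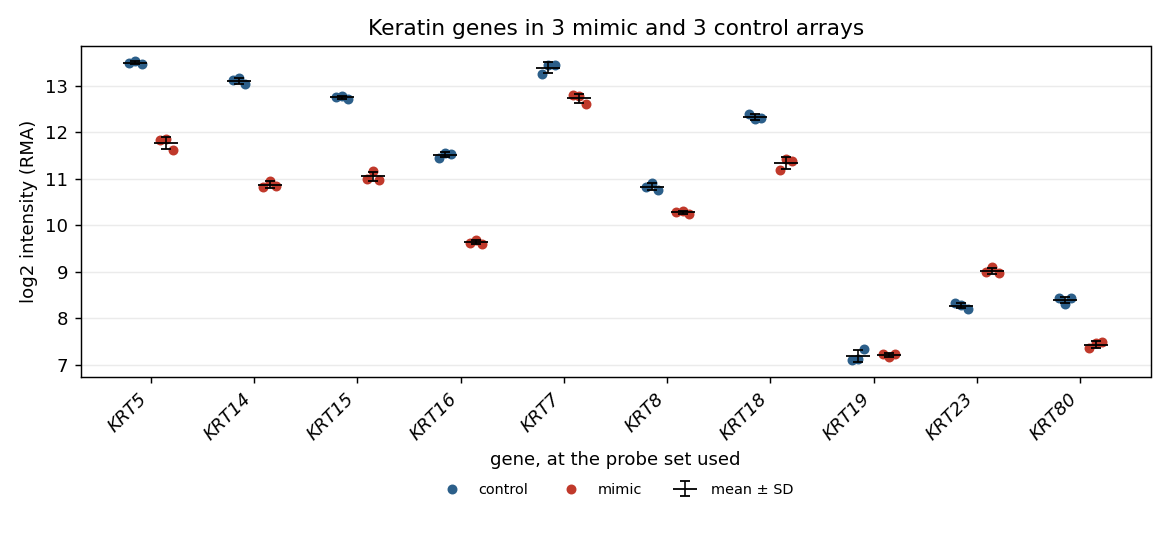
Log2 intensity (RMA) of the 10 measured keratin members in each of the 3 control and 3 mimic arrays, with mean and SD in black. The mimic arrays lie below the control arrays for 8 of the 10, above them for KRT23, and among them for KRT19; heights of different genes are not comparable.

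The log2 ratio of KRT5 to KRT14, set to its mean in the control arrays, was 0.62, 0.51 and 0.39 in the mimic and -0.02, -0.02 and 0.04 in the control arrays. That of KRT8 to KRT18 was 0.60, 0.38 and 0.36 against -0.07, 0.13 and -0.06. In both pairs the groups did not overlap, with differences of 0.51 for KRT5 to KRT14 and 0.45 for KRT8 to KRT18. The exact two-sided permutation test gave p = 0.1 for each (adjusted p = 0.1 over the 2 pairs). That is the smallest p that 3 arrays against 3 can give, so the test could not decide whether the falls were unequal. Each of these genes rests on 1 probe set. Of the 4 pairs planned, those with KRT6A could not be measured.

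Among the 10 desmosome genes 5 fell, none rose and 5 did not pass, where 16.3% of all genes fell and 14.1% rose. The median change of the desmosome genes was -0.18. The largest falls were in 2 cadherins of basal and stratified epithelium. Desmoglein 3 (DSG3), the adhesion molecule attacked in pemphigus vulgaris, read 11.09, 11.19 and 11.23 in the mimic and 13.08, 12.97 and 13.03 in the control arrays. All mimic arrays were lower, the change was -1.85 ± 0.06 (SE, adjusted p = 8.8e-09), and the second probe set fell by 1.80. Desmocollin 3 (DSC3) read 10.13, 10.28 and 10.29 against 12.10, 12.10 and 11.90, a change of -1.80 ± 0.08 (SE) or 3.48-fold higher in the control (adjusted p = 3.3e-08). Its other probe sets, with changes of -1.81 and -1.97, were as far apart.

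The cadherins with a wider range of tissues had smaller changes at the probe sets used. Desmocollin 2 (DSC2) read 11.50, 11.65 and 11.73 against 12.17, 12.20 and 12.17, and all 4 of its probe sets fell, with changes from -1.30 to -0.55. Desmoglein 2 (DSG2), the desmoglein found in nearly all desmosome-bearing tissues, read 12.15, 12.20 and 12.27 against 12.37, 12.36 and 12.31. The mimic arrays were all lower, but the change of -0.14 ± 0.06 (SE) did not pass (adjusted p = 0.13); its other probe set fell by 0.32 (adjusted p = 0.01). With eBayes trend and robust, and with both probe sets averaged, DSG2 passed, at -0.14 and -0.23. The log2 ratio of DSG2 to DSG3 was higher by 1.71 in the mimic arrays, with SDs of 0.02 and 0.05, and that of DSC2 to DSC3 by 1.25, with SDs of 0.04 and 0.10 (n = 3 each). Over all combinations of probe sets the first ranged from 1.48 to 1.71 and the second from 0.50 to 1.42, so the size of the second depends on the probe set. These ratios were chosen after the values were seen and were not tested.

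The 7 desmosomal cadherin genes lie together on chromosome 18, in the order DSC3, DSC2, DSC1, DSG1, DSG4, DSG3 and DSG2. Along it the changes were -1.80, -0.55, -0.02, -1.09, -0.51, -1.85 and -0.14. DSC1 and DSG1, cadherins of the upper epidermis that are not members, read 5.19 to 6.71 on all arrays, below the array medians, so whether they were expressed is not known.

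On the cytoplasmic side of the desmosome the changes were small. Desmoplakin (DSP), which anchors keratin filaments, read 12.53, 12.63 and 12.74 against 13.07, 13.04 and 13.04, a change of -0.41 ± 0.07 (SE, adjusted p = 0.00092). Plakoglobin (JUP), which binds the cadherin tails, averaged 12.51 ± 0.03 against 12.74 ± 0.03 (SD, n = 3 each) and fell by 0.22 (adjusted p = 0.018). That call was lost without control replicate 2 (adjusted p = 0.063) and without mimic replicate 2 (adjusted p = 0.065). The plakophilin genes, whose products gather desmosomal proteins into plaques, did not pass at any of their 6 probe sets. The 95% confidence intervals of the changes were -0.10 to 0.23 for PKP1, -0.07 to 0.22 for PKP2 and -0.16 to 0.12 for PKP3. PERP, a tetraspan membrane protein of desmosomes, read 14.26, 14.26 and 14.29 against 14.37, 14.30 and 14.34, a change of -0.07 that did not pass. Of its other 4 probe sets 1 fell by 0.76 (adjusted p = 4.4e-06) and 3 did not pass; with all 5 averaged PERP passed at -0.23.

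**Figure D3:**
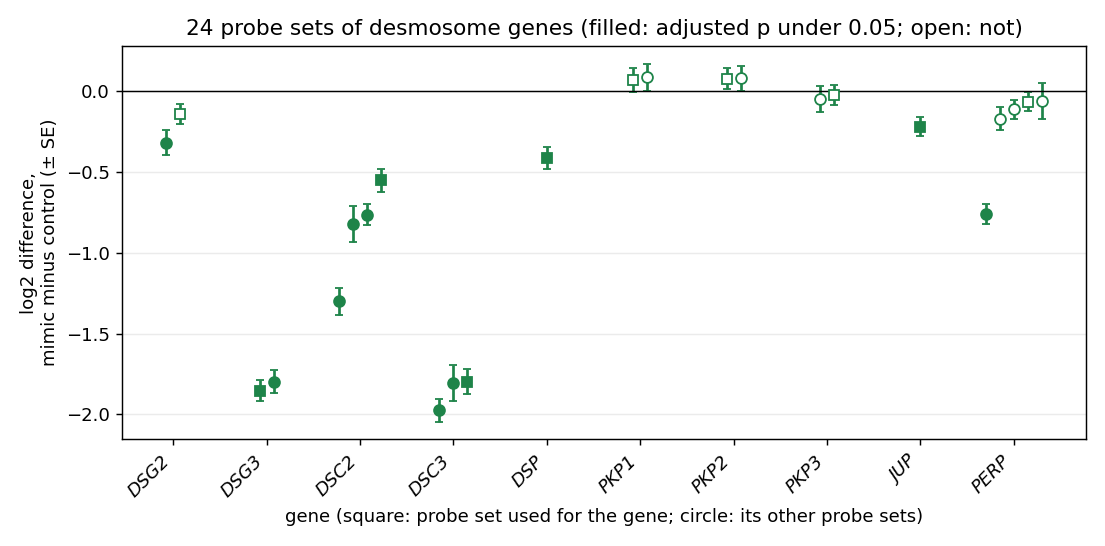
Log2 difference, mimic minus control, with limma's moderated standard error, at each of the 24 probe sets of the 10 desmosome genes; squares are the probe sets used, filled symbols passed an adjusted p of 0.05. The 5 probe sets of DSG3 and DSC3 lie between -1.97 and -1.80, and those of the plakophilins lie around 0.

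Cornified envelope genes moved both ways. Of 13 measured, 7 fell, 3 rose and 3 did not pass, where 16.3% of all genes fell and 14.1% rose. The median change of the 13 was -0.27, with no change of 2-fold. TGM1, the membrane-bound transglutaminase that cross-links the envelope, fell most. It read 8.73, 8.88 and 8.81 in the mimic and 9.88, 9.48 and 9.70 in the control arrays, without overlap and with a wide control spread, and was 1.84-fold higher in the control (-0.88 ± 0.09, SE, adjusted p = 3.9e-05). Its substrate involucrin (IVL) read 10.20, 10.23 and 10.20 against 10.51, 10.46 and 10.48, a small but tight change of -0.27 ± 0.06 (SE, adjusted p = 0.0048). Of the plakins, envoplakin (EVPL) fell by 0.44 (adjusted p = 0.00076), and periplakin (PPL), with which it pairs, had a change of -0.07 with a 95% confidence interval from -0.21 to 0.07.

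Small proline-rich proteins, cross-bridging proteins of the envelope, did not move together. SPRR1B read 12.29, 12.40 and 12.38 against 13.22, 13.19 and 13.18, a fall of 0.84 on the log2 scale (adjusted p = 2e-06). SPRR3 read 12.39, 12.46 and 12.38 against 12.17, 12.14 and 12.02, with each mimic array above each control array and a change of 0.30 ± 0.07 (SE, adjusted p = 0.0056). The other SPRR3 probe set had a change of -0.07 and did not pass, and with both averaged the gene no longer passed, at 0.11. SPRR1A differed between its probe sets. The one with the highest signal read 12.37, 12.54 and 12.44 against 12.42, 12.36 and 12.26 and did not pass, while its x_at probe set fell by 0.56 (adjusted p = 5.1e-05). The log2 ratio of SPRR3 to SPRR1B was higher by 1.14 in the mimic arrays, with SDs of 0.05 and 0.06 (n = 3 each), and by 0.77 with the other SPRR3 probe set, a ratio chosen after the values were seen and not tested. The AP-1 motif is marked in the printed stretches of IVL and SPRR1B, which fell, and of SPRR3, which rose at the probe set used. Any link of the motif to these changes was not tested.

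Cornifelin (CNFN), an envelope protein, read 8.23, 8.36 and 8.36 against 7.93, 7.88 and 7.83, all mimic arrays being higher, and rose by 0.44 ± 0.06 (SE, adjusted p = 0.00043). Filaggrin (FLG), which bundles keratin in the outer epidermis, read 5.57, 5.39 and 5.69 against 5.34, 5.19 and 5.33. Its call (0.27 ± 0.08, SE, adjusted p = 0.038) was lost after quantile normalization (adjusted p = 0.066), after median centring (0.060), with array weights (0.13) and without any 1 of 5 arrays (all but mimic replicate 2, adjusted p from 0.058 to 0.15). Its values lie below the array medians, and whether FLG was expressed is not known. A2ML1, a protease inhibitor of keratinocytes, read 8.06, 8.15 and 7.98 against 9.05, 8.83 and 8.84, 1.80-fold higher in the control (adjusted p = 1.2e-05), and its other probe set, at -0.19, did not pass.

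CALML5, a calmodulin-like protein of differentiating keratinocytes, averaged 6.23 ± 0.14 against 6.78 ± 0.07 (SD, n = 3 each) and fell by 0.55 (adjusted p = 0.00034). Suprabasin (SBSN), a secreted protein of suprabasal layers, averaged 8.69 ± 0.10 against 8.79 ± 0.04 (SD, n = 3 each), a change within the overlap of the groups (-0.10, 95% confidence interval -0.25 to 0.05). Lipocalin 2 (LCN2), an iron-scavenging secreted protein and not itself an envelope component, read 10.81, 10.92 and 10.66 against 11.18, 11.17 and 11.07, a fall of 0.34 (adjusted p = 0.0066). CALML5, like FLG, lies below the array medians.

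**Figure D4:**
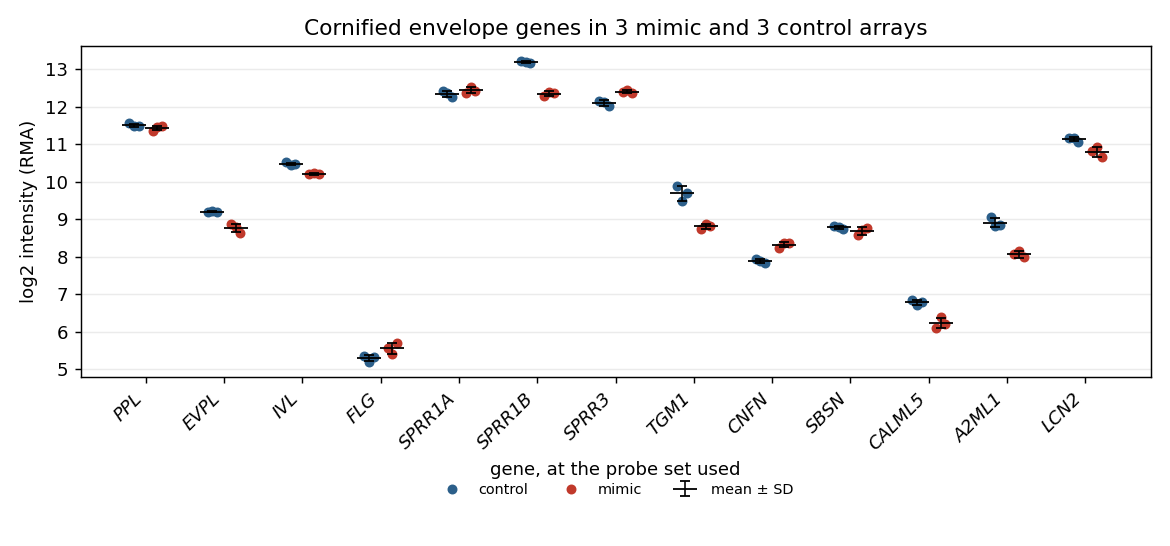
Log2 intensity (RMA) of the 13 measured cornified envelope members in each of the 3 control and 3 mimic arrays, with mean and SD in black. SPRR1B, TGM1 and A2ML1 are the clearest falls, and CNFN, SPRR3 and FLG lie higher in the mimic arrays; heights of different genes are not comparable.

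Of the 13 members with several probe sets, 9 had at least 1 that passed. All probe sets passed in the same direction in 3 of these 9, DSG3, DSC2 and DSC3. In the other 6 some passed and some did not, and in KRT7, SPRR1A and SPRR3 those that did not pass had the opposite sign. None of the 9 had probe sets called in both directions. KRT19, PKP1, PKP2 and PKP3 had none that passed, and the other 20 members have 1 probe set.

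Of 30 other keratins measured for context, 3 rose, 2 fell and 25 did not pass (median change 0.04), where 30.4% of all genes changed. In 15 of the 30, none of them called, both group means lay below every array median, so whether these were expressed is not known. KRT13, a type I keratin of stratified mucosa, and its partner KRT4 fell, by 0.95 and 0.60 on the log2 scale, KRT4 on 1 of its 2 probe sets. KRT10, the type I keratin of suprabasal epidermis, averaged 13.35 ± 0.03 against 12.99 ± 0.08 (SD, n = 3 each) and rose by 0.35 (adjusted p = 0.0016), on all 3 of its probe sets. KRT78, a type II keratin, rose by 0.53 on the log2 scale, on both of its probe sets. KRT33B, a hair keratin, rose by 0.28, a call lost without control replicate 1 (adjusted p = 0.081) or control replicate 2 (adjusted p = 0.054). KRT1, the usual partner of KRT10, averaged 7.75 against 7.63, near the array medians, and did not pass.

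On chromosome 17, where type I keratin genes lie together, the order of those named is KRT10, KRT23, KRT33B, KRT13, KRT15, KRT19, KRT14 and KRT16. Their changes in that order were 0.35, 0.74, 0.28, -0.95, -1.70, 0.02, -2.23 and -1.89. KRT8 and KRT18, which both fell, are neighbours on chromosome 12.

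Of 30 other junction and cornification genes, 7 rose, 8 fell and 15 did not pass, where 14.1% of all genes rose and 16.3% fell. The median change of the 30 was 0.01. The 4 largest rises, all above that of CNFN, were in RPTN, KRTDAP, ECM1 and LCE3D. Repetin (RPTN), an envelope precursor, read 7.81, 7.71 and 7.92 against 6.08, 6.07 and 5.99, 3.41-fold higher (adjusted p = 2e-08), although its control values lie below the array medians, where the size of a fold is uncertain. KRTDAP, a protein of differentiating keratinocytes, read 10.23, 10.33 and 10.12 against 8.67, 8.61 and 8.51, 3.08-fold higher (adjusted p = 5e-08). Its gene neighbours that of SBSN among the listed genes of chromosome 19, which did not pass. ECM1, an extracellular matrix protein that binds basement membrane components, was 2.75-fold higher, and the late envelope gene LCE3D 1.67-fold. Genes that fell included DSG1 (-1.09, below the array medians as above), the protease inhibitor gene CSTA (-0.72), PKP4 (-0.71, on 3 of its 5 probe sets), an armadillo protein related to the plakophilins, and sciellin, SCEL (-0.65, on 3 of its 4 probe sets).

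In the epidermal differentiation complex, the stretch of chromosome 1 that holds many envelope genes, measured genes lie in the order TCHH, RPTN, FLG, FLG2, LCE3D, LCE2B, LCE1B, IVL, SPRR4, SPRR1A, SPRR3, SPRR1B, SPRR2B, SPRR2C and SPRR2G. Their changes were 0.20, 1.77, 0.27, 0.03, 0.74, 0.22, -0.09, -0.27, 0.18, 0.10, 0.30, -0.84, -0.17, -0.06 and 0.07. Those that rose and those that fell were thus interspersed with genes that did not pass.

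Transcription factors known from epidermal differentiation changed in both directions. Of 18 measured, 4 rose, 8 fell and 6 did not pass, where 14.1% of all genes rose and 16.3% fell. The median change of the 18 was -0.10. Of those that did not pass, ELF3 fell on 2 of 3 probe sets and EHF on 1 of 6, but not at those used. ZNF750, a zinc finger protein required for terminal differentiation, read 6.88, 7.14 and 7.10 against 9.33, 9.15 and 9.16, 4.51-fold higher in the control (adjusted p = 1.5e-08), with mimic values below the array medians and the same limit on its fold. SOX9, a factor of mammary and hair follicle progenitors, fell by 1.44, and TFAP2A and GRHL1 by 0.88 and 0.77 on the log2 scale. KLF4, a factor of barrier formation, read 12.28, 12.35 and 12.46 against 11.56, 11.64 and 11.49 and was 1.74-fold higher in the mimic (adjusted p = 8.4e-06), on both of its probe sets. MAF, which promotes late keratinocyte differentiation, was 3.52-fold higher, also against control values below the array medians, and rose on 4 of its 6 probe sets. HOPX rose by 2.53 ± 0.08 (SE) and PRDM1 by 0.48 ± 0.06 (SE), PRDM1 on 2 of its 3 probe sets.

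**Figure D5:**
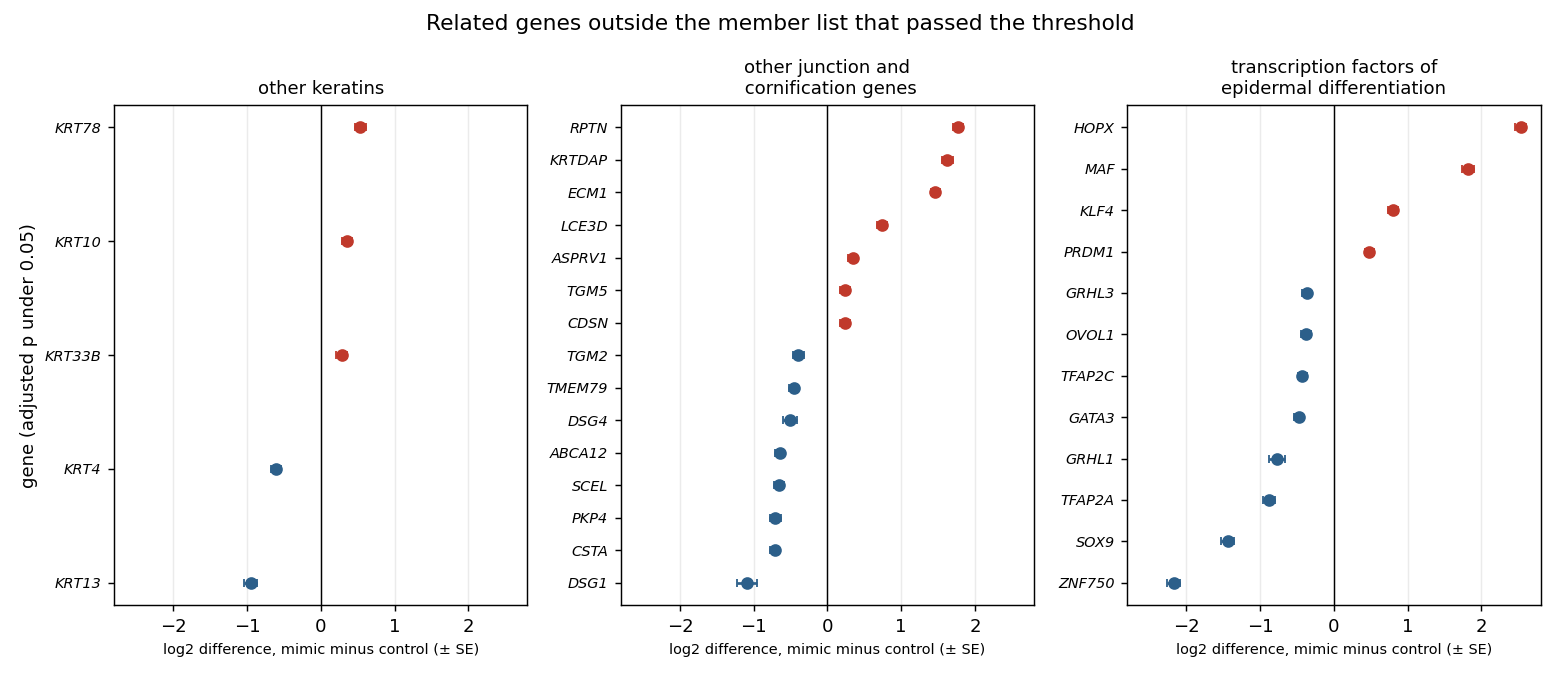
Log2 difference, mimic minus control, with limma's moderated standard error, of the related genes outside the member list that passed an adjusted p of 0.05, in 3 lists; genes that did not pass are not drawn. HOPX, MAF, RPTN, KRTDAP and ECM1 lie furthest above 0 and ZNF750, SOX9 and DSG1 furthest below; RPTN and MAF in control, ZNF750 in mimic and DSG1 in all arrays lie below the array medians.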

How the data were processed

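The deposited values are log2 intensities of Affymetrix probe sets, normalized by the authors with RMA, per the submitters' processing notes; no RMA version is stated there. That values are log2 follows from their range. Because RMA equalises the arrays, a global shift in RNA content would be hidden. The p-values measure the spread between 3 biological replicates per group.

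After leaving out 62 control probe sets, 54613 were fitted, mimic against control, over all 6 arrays with limma 3.58.1 (lmFit and eBayes, no trend, not robust) in R 4.3.3. Benjamini-Hochberg adjustment covered all of these, at a threshold of 0.05. Symbols came from the platform annotation. A gene was read at its 1-symbol probe set whose mean of the 6 arrays was highest. Standard errors are limma's moderated ones.

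Members and lists were chosen with earlier results of these data known. Values in every array are given for members called and changed at least 2-fold, for keratin partners and for the largest change in each direction per group. From each context list up to 4 called genes in each direction are named; DSC1, KRT1, the other genes along chromosomes 1 and 18, and the ratios marked so were named after their values were seen. Marker sums without 1 marker and ratios at other probe sets were added after seeing the data. The fit was tested on simulated data. Python 3.11.15 (pandas 2.3.3, scipy 1.17.1) made the tables.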

Additional observations from a re-analysis of the deposited data

How the results depend on the processing

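Under 15 other settings, members' changes gave 492 values. Of these, 464 had an unchanged call, and direction was compared only where a gene passed in either setting. KRT19, which did not pass, is counted among them although its change turned to -0.02 after quantile normalization again. Of the other 28, 11 were lost only because a 1.5-fold minimum was added. With that minimum, which by construction leaves fewer calls, 1 member rose and 12 fell. Among these, 2 desmosome genes fell, and 0 cornified envelope genes rose and 3 fell. By member probe set, 1 was higher and 19 were lower. Of all 54613 probe sets, 1346 were higher and 2244 lower with that minimum, or 6.57% called. SPRR1A turned to -0.23 with its probe sets averaged, because they differ. Leaving out each array in turn gave 19 to 20 members lower and 3 to 4 higher, with 18.8% to 24.4% of all probe sets called. The KRT5 to KRT14 ratio then changed by 0.45 to 0.57 and the KRT8 to KRT18 ratio by 0.37 to 0.51. With the replicate number as a block, 20 members fell and 4 rose, as without it, and 24.5% of all probe sets were called. Deviations from group means correlated with r of -0.11, 0.08 and 0.08 in same-numbered arrays. In differently numbered arrays r ranged from -0.19 to 0.12. Because deviations from the mean of 3 arrays cancel out within a group, these values cannot decide whether same-numbered arrays were paired. Of all probe sets, 25.7% were called after quantile normalization again (7109 higher, 6943 lower), 23.5% with median centring (5134 higher, 7698 lower) and, using array weights, 33.3% (9576 higher and 8622 lower). Leaving out the 40% dimmest probe sets removed 3 members.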
